A study of Homo sapiens with 33 samples.

Results

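The APOBEC3 cluster is a tandem array of cytidine deaminase genes on chromosome 22. Its members were chosen by symbol, and all 7 of them (APOBEC3A, APOBEC3B, APOBEC3C, APOBEC3D, APOBEC3F, APOBEC3G and APOBEC3H) had a row among the 29744 genes measured. APOBEC3 enzymes turn cytosine into uracil in single-stranded DNA, which edits the reverse transcripts of retroviruses and the products of retrotransposons. Several members are induced by interferon in immune cells, and APOBEC3A and APOBEC3B are known for leaving clustered cytosine mutations in tumour genomes. APOBEC3A, APOBEC3C and APOBEC3H carry a single zinc-binding deaminase domain, whereas APOBEC3B, APOBEC3D, APOBEC3F and APOBEC3G carry a pair of them.

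RNA was sequenced from 11 cell lines of 4 families, all of them human and derived from high-grade serous carcinoma of the ovary, with 3 libraries per line and 33 in all. OVCAR3 and OVCAR4 are platinum-sensitive parental lines. OVCAR3 ResA, OVCAR3 ResB, OVCAR4 ResA and OVCAR4 ResB were each raised from their parent in the laboratory by repeated pulses of cisplatin, a platinum drug that crosslinks DNA. PEA1 and PEA2 came from 1 patient and PEO1, PEO4 and PEO6 from another; the labels name no treatment for these lines, and PEA1 and PEO1 are the sensitive lines. The sensitive and resistant roles come from the text of the study, since the sample labels name only the line. Each line is 1 line, and nothing in the labels says that its 3 libraries came from separate cultures, so p-values measure the spread between libraries. ResA and ResB share the libraries of their parent, and PEO4 and PEO6 share those of PEO1, so their comparisons are not independent.

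Library totals were 18058985 to 43394009 expected counts (median 30611448), and the mitochondrial ribosomal genes took 1.12% to 14.8% of them. All 33 libraries correlated best with another library of their own line, over 15808 genes. PAX8, EPCAM and KRT8, markers of serous carcinoma, had a mean of at least 30.1, 14.005 and 128 TPM (a transcript level per length, scaled to the same sum in every library) in every line, while the mean of MUC16 fell to 0.0696 and that of WT1 to 0.645 TPM in the line where each was lowest. Of the 6 lymphoid markers, CD3E and CD2 were at 0 in 31 and 32 of 33 libraries, and MS4A1 and NKG7 in all 33.

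In the GRCh38.p14 assembly the cluster spans chr22:38957609-39104067, or 146 kb of chromosome 22. From its centromeric side run APOBEC3A (38957609 to 38963184), APOBEC3B (38982347 to 38992779), APOBEC3C (39014257 to 39020352), APOBEC3D (39021127 to 39033277), APOBEC3F (39040864 to 39055972), APOBEC3G (39077005 to 39087743) and APOBEC3H (39097244 to 39104067). These positions are those of RefSeq and matched all 7 members by symbol. The flanking genes used here as neighbours are GTPBP1, SUN2, DNAL4, NPTXR and CBX6 before APOBEC3A, and CBX7, PDGFB, RPL3, SYNGR1, TAB1 and MGAT3 after APOBEC3H.

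The members are close copies of each other, and this bears on how reads were assigned to them. In the GENCODE release 44 transcripts, 36.5% of the 31-base words of APOBEC3B also occur in another member, against 22.7% for APOBEC3D, 20.7% for APOBEC3A, 16.9% for APOBEC3F, 7.38% for APOBEC3G, 6.78% for APOBEC3C and 0% for APOBEC3H. The sequences below show the longest runs of identical coding bases for some of the pairs that bear on the values that follow. APOBEC3B and APOBEC3D also share a run, of 172 bases (1 to 172 in both), which is not printed here. These runs come from the longest coding transcript of each gene, and positions count from 1 at the first base of the start codon. Capitals mark the codons from the proline-cysteine pair to the following cysteine, which belong to the zinc-binding element of the deaminase fold.
APOBEC3D (737 to 958) and APOBEC3F (698 to 919), 222 bases: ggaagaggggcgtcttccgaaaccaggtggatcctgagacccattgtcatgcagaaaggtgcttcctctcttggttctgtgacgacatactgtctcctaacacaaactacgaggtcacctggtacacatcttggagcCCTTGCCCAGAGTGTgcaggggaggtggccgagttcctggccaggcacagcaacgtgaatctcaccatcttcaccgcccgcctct
APOBEC3A (173 to 368) and APOBEC3B (722 to 917), 196 bases: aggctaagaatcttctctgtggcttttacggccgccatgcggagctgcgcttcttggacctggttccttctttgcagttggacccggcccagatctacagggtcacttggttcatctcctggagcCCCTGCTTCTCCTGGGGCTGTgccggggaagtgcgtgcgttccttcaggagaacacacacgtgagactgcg
APOBEC3F (1 to 142) and APOBEC3G (1 to 142), 142 bases: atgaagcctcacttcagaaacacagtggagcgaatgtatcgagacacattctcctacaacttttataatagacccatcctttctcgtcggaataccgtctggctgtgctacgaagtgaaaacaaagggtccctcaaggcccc
A read inside such a run cannot be placed on sequence alone, and salmon then divides it between the genes, which leaves counts with a fraction. Across all genes 81.1% of the deposited values above 0 were whole numbers (within 1e-06). For APOBEC3H, which shares no 31-base word, 100% were whole. For APOBEC3C the share was 60.6%, for APOBEC3B and APOBEC3F 12.1% each, and for APOBEC3A, APOBEC3D and APOBEC3G 0%, again of the values above 0. Small values of one member beside a large value of its close copy are therefore uncertain.

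APOBEC3B, APOBEC3C and APOBEC3F were above the floor of 3 counts in all 33 libraries, APOBEC3D in 16, APOBEC3G in 15, APOBEC3H in 10 and APOBEC3A in 2. The sum of the 7 levels ran from 4.03 ± 1.06 TPM (SD, n = 3) in OVCAR3 ResA to 114 ± 33.7 TPM in OVCAR4 ResB. Which member supplied most of it differed between families. APOBEC3C made up 69.7% ± 1.17 (SD, n = 3) of the summed TPM in OVCAR3, APOBEC3B 74.1% ± 2.49 in OVCAR4 and 66.8% ± 4.90 in PEA1, and in PEO1 the shares were 43.04% ± 2.29 for APOBEC3C and 35.6% ± 4.09 for APOBEC3B. APOBEC3G reached 24.9% ± 6.07 in PEO6.

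**Figure D1:**
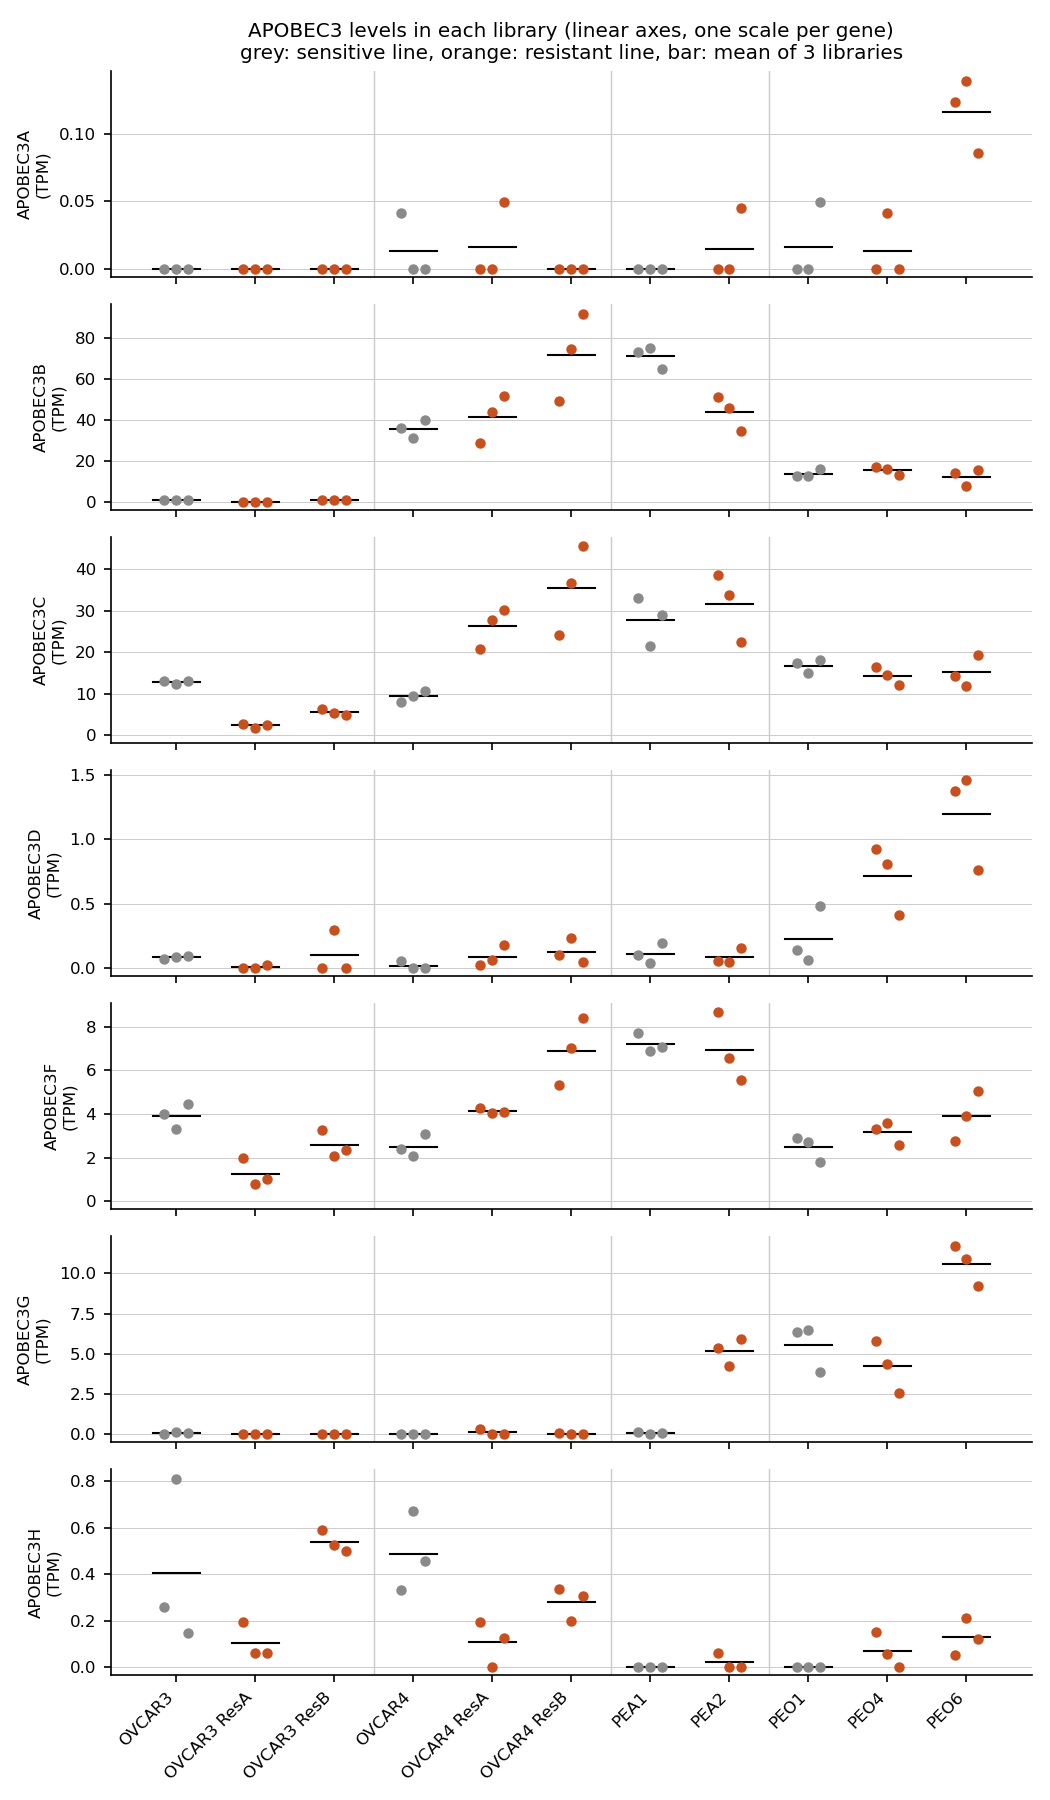
Level of each APOBEC3 gene (TPM, linear axis, one scale per gene) in the 33 libraries of the 11 lines; points are libraries, grey for sensitive and orange for resistant lines, and bars are means of 3. APOBEC3B lies near 1 TPM or below in the OVCAR3 family and above 28 TPM in every OVCAR4 and PEA library, and APOBEC3G is seen in the PEO lines and PEA2.

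**Figure D2:**
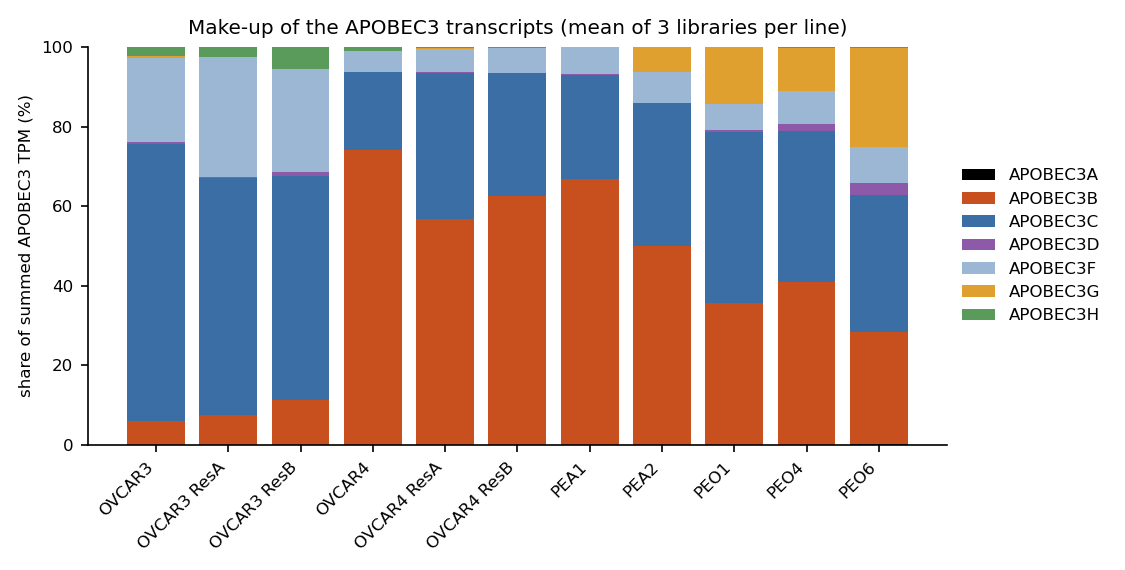
Share of the summed APOBEC3 TPM taken by each gene (percent, stacked from 0 to 100, mean of 3 libraries) in each line. APOBEC3C takes the most in the OVCAR3 family, APOBEC3B in the OVCAR4 and PEA families, and APOBEC3G takes 24.9% in PEO6.

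APOBEC3B, the nuclear member, was the most variable of the 3 genes seen in every library. Its mean level was 71.6 ± 21.4 TPM (SD, n = 3) in OVCAR4 ResB, 70.8 ± 5.38 in PEA1, 43.7 ± 8.30 in PEA2, 41.4 ± 11.7 in OVCAR4 ResA and 35.7 ± 4.36 in OVCAR4. It was 15.5 ± 1.99 TPM in PEO4, 13.9 ± 2.06 in PEO1 and 12.5 ± 4.29 in PEO6. In the OVCAR3 family it was 1.09 ± 0.187 TPM in ResB, 1.08 ± 0.144 in the parent and 0.274 ± 0.0843 in ResA. The libraries of the OVCAR4 and PEA families all lay above those of the PEO lines, which all lay above those of OVCAR3 and its derivatives. Within the top group PEA1 lay above PEA2, OVCAR4 ResA and OVCAR4, while the libraries of OVCAR4 ResB spread over both ranges. The PEO lines overlapped each other, as did OVCAR3 and ResB, and ResA lay below both. The antisense gene APOBEC3B-AS1, which overlaps the end of APOBEC3B, was at 0 in all 9 OVCAR3 family libraries and had at most 11 counts in any other library, and the use of strand in the counting is not given in the sources used here.

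APOBEC3C, a single-domain member that restricts retrotransposons, had a mean that was highest in OVCAR4 ResB (35.5 ± 10.7 TPM) and lowest in OVCAR3 ResA (2.38 ± 0.472 TPM). Between them stood PEA2 (31.8 ± 8.28), PEA1 (27.9 ± 5.90), OVCAR4 ResA (26.3 ± 4.88), PEO1 (16.8 ± 1.69), PEO6 (15.3 ± 3.84), PEO4 (14.3 ± 2.12), OVCAR3 (12.8 ± 0.368), OVCAR4 (9.45 ± 1.35) and OVCAR3 ResB (5.55 ± 0.796). The libraries overlapped between neighbours among the first 4 of these 11 lines and again from PEO1 to OVCAR3, and each of the last 3 lines lay clear of the one before it. APOBEC3F, a double-domain restriction factor, was the most even of the 3, with the highest line mean 5.70 times the lowest against 14.9 times for APOBEC3C and 261 times for APOBEC3B. It spanned 7.23 ± 0.413 TPM in PEA1 to 1.27 ± 0.649 TPM in OVCAR3 ResA, with the only gap between neighbours below OVCAR4 ResB (6.91 ± 1.54).

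APOBEC3G, the best known factor against HIV-1, was seen in 4 lines: PEO6 (10.6 ± 1.28 TPM), PEO1 (5.55 ± 1.49), PEA2 (5.17 ± 0.874) and PEO4 (4.23 ± 1.61). The libraries of PEO6 lay above those of the other 3, which overlapped. In the other 7 lines its mean was 0.122 TPM or less, and it was at 0 in all libraries of OVCAR3 ResA, OVCAR3 ResB and OVCAR4. APOBEC3D, the neighbour that shares the run with APOBEC3F, reached 1.20 ± 0.382 TPM in PEO6 and 0.717 ± 0.267 TPM in PEO4 and stayed at 0.229 TPM or less elsewhere. APOBEC3H did not exceed 0.541 TPM as a mean, with 11 counts in the highest library. The highest count of APOBEC3A was 3.44, in PEO6, where its close copy APOBEC3B had 202.9 to 410.9 counts, so APOBEC3A was not detectable above the floor in 31 of 33 libraries and no fold change is given for it.

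Each resistant line was compared with its sensitive line by a DESeq2 Wald test on the expected counts of all genes, with the replicate number as a block, and a gene was called at an adjusted p under 0.05 (Benjamini-Hochberg over all genes). Of 49 combinations of member and pair, 30 had an adjusted p. In 12 the member was called, 7 higher and 5 lower in the resistant line, beside 23.4% of genes called over the 7 pairs, 11.8% higher and 11.6% lower. APOBEC3C was called in 3 pairs, 1 higher and 2 lower, and APOBEC3F in 3, 2 higher and 1 lower. APOBEC3B was called lower in 2 pairs, and APOBEC3D and APOBEC3G higher in 2 pairs each. APOBEC3A and APOBEC3H were called in none, though APOBEC3A had no adjusted p in any pair and APOBEC3H in only 3. By counts APOBEC3C and APOBEC3F were thus called in opposite directions in different families. For APOBEC3F the 2 higher calls, in PEA2 and PEO6, were lost when the implied transcript length was entered in the fit, as given below.

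**Figure D3:**
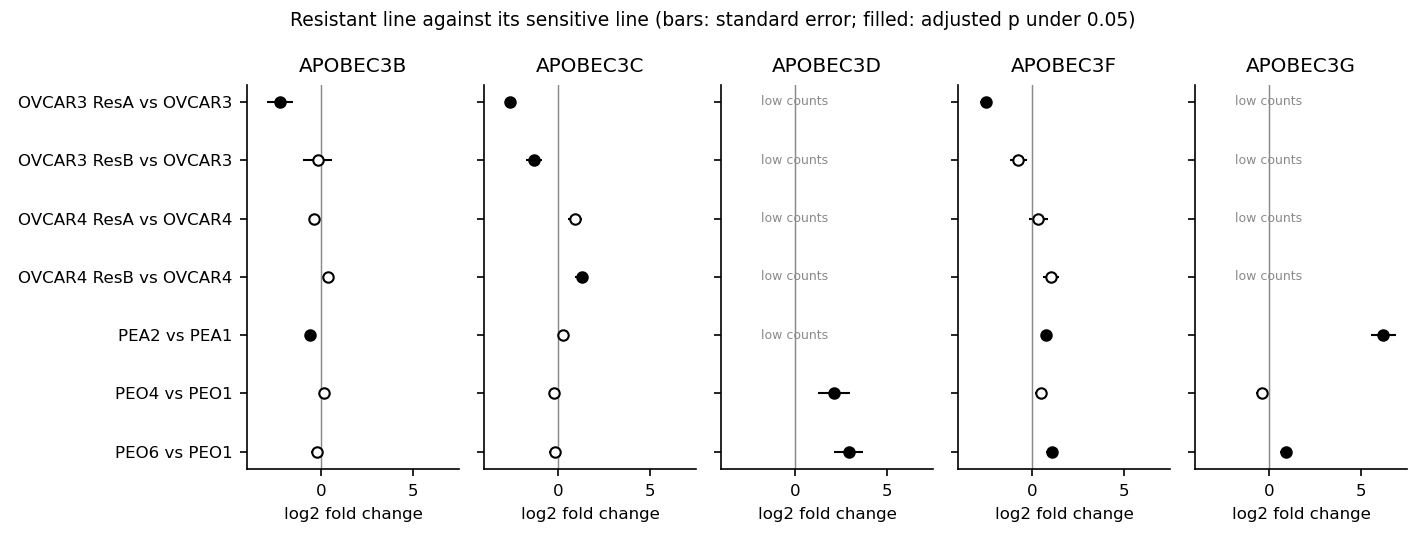
Log2 fold change (resistant over sensitive, horizontal axis) of 5 APOBEC3 genes in the 7 pairs; bars are standard errors from DESeq2, filled points have an adjusted p under 0.05, and "low counts" marks pairs with a mean under 10 normalised counts in both lines. The 3 points of OVCAR3 ResA lie below -2, and APOBEC3G in PEA2 lies above 6.

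In OVCAR3 ResA APOBEC3C, APOBEC3F and APOBEC3B fell. APOBEC3C was at 13.0, 12.4 and 13.0 TPM in the 3 OVCAR3 libraries and at 2.76, 1.85 and 2.52 TPM in those of ResA. APOBEC3F was at 4.01, 3.32 and 4.45 TPM in OVCAR3 and at 2.003, 0.777 and 1.02 TPM in ResA. APOBEC3B was at 1.05, 0.949 and 1.23 TPM in OVCAR3 and at 0.178, 0.334 and 0.310 TPM in ResA, the latter from 4 to 8 counts. For each of the 3 genes every ResA library lay below every OVCAR3 library. On the log2 scale APOBEC3C fell by 2.58 ± 0.28 (SE; adjusted p 4.81e-19), APOBEC3F by 2.49 ± 0.33 (adjusted p 5.02e-13) and APOBEC3B by 2.20 ± 0.71 (adjusted p 0.00554). These are 3 of 7 members, beside 37.2% of all genes called in this pair, 18.2% higher and 19% lower, and beside 36.8% of genes whose libraries did not overlap between the lines in normalised counts. The call of APOBEC3C held under each of 11 alternatives. That of APOBEC3F was lost under 1 of 11, limma without a filter (-1.15, adjusted p 0.0762). The transcript length implied by its counts and TPM was 0.676 times that in OVCAR3, with no overlap between libraries, and with that length as an offset in the fit it fell by 1.87 (adjusted p 1.55e-06). The call of APOBEC3B was lost when any 1 replicate number was left out of both lines (adjusted p 0.0660 to 0.184), with its log2 change between -1.95 and -2.42. APOBEC3H was at 0.257, 0.811 and 0.147 TPM in OVCAR3 and 0.197, 0.0611 and 0.0598 TPM in ResA, from at most 11 counts, and was not called (adjusted p 0.295).

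In OVCAR3 ResB only APOBEC3C was called, 1 of 7 members beside 5.78% of genes, 3.09% higher and 2.69% lower, and 22.1% of genes did not overlap in normalised counts. Its libraries were at 6.44, 5.28 and 4.91 TPM, all below those of OVCAR3, and it fell by 1.31 ± 0.44 on the log2 scale (adjusted p 0.0387). This call was lost with edgeR (adjusted p 0.0740), with limma, and when replicate 1, 2 or 3 was left out (adjusted p 0.146 to 0.410). APOBEC3F stood at 3.27, 2.07 and 2.36 TPM (log2 difference -0.73 ± 0.44, adjusted p 0.449). APOBEC3B stood at 1.02, 1.30 and 0.946 TPM, within the range of OVCAR3, with a log2 difference of -0.18 and a 95% interval from -1.69 to 1.32. The lines ResA and ResB, raised from the same parent by the same drug, differed directly in APOBEC3F, which was higher in ResB by 1.76 ± 0.56 on the log2 scale (adjusted p 0.0179, the 1 member called, beside 10.2% of genes called, 5.63% higher and 4.55% lower). For APOBEC3B and APOBEC3C the same difference was 2.02 ± 0.95 and 1.27 ± 0.56, with every ResB library above every ResA library (29.4% of genes did not overlap in normalised counts), but neither passed (adjusted p 0.156 and 0.120). The call of APOBEC3F was lost under 5 of 11 alternatives: without replicate 1 (adjusted p 0.250) or 2 (adjusted p 0.558), by limma with or without a filter (0.68, adjusted p 0.274 and 0.495), and with the length offset (1.13, adjusted p 0.210). The replicate block was decisive for the others: without it all 3 were called.

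In the OVCAR4 family APOBEC3C was the 1 member called against the parent. Its libraries were at 8.08, 9.49 and 10.8 TPM in OVCAR4, at 20.8, 27.8 and 30.2 TPM in ResA and at 24.2, 36.7 and 45.6 TPM in ResB. Every resistant library lay above every OVCAR4 library. From the counts it rose by 1.29 ± 0.35 on the log2 scale in ResB (adjusted p 0.00295), the 1 member of 7 called, beside 13.8% of genes called, 7.03% higher and 6.78% lower, and 34.6% not overlapping in normalised counts, and its difference in ResA was 0.93 ± 0.37 (adjusted p 0.0776), where 0 of 7 members and 8.52% of genes were called, 4.78% higher and 3.73% lower, and 29.4% of genes did not overlap in normalised counts. The count in ResA became 1 without the replicate block, without replicate 1 or with all 33 libraries in 1 fit, in each case APOBEC3C, and 0 were called by edgeR; APOBEC3C had an unadjusted p of 0.0112. The call in ResB was lost without replicate 2 (adjusted p 0.144) or replicate 3 (adjusted p 0.322).

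The mitochondrial ribosomal genes took 10.6% ± 4.94 (SD, n = 3) of the counts in OVCAR4, against 4.44% ± 4.14 in ResA and 5.98% ± 6.15 in ResB, and the median gene was 0.48 and 0.53 higher on the log2 TPM scale in ResA and ResB than in OVCAR4. Differences in TPM between these lines are to be read against that shift, and its part in single genes was not tested. The share of a member within the cluster does not depend on it. By this measure APOBEC3C went from 17.2% to 21.9% of the summed APOBEC3 TPM in the OVCAR4 libraries to between 35.0% and 38.3% in ResA and between 30.6% and 31.2% in ResB, while APOBEC3B went from between 71.8% and 76.8% to between 52.8% and 59.8% and between 62.0% and 62.8%. Neither share overlapped between the parent and either derivative.

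APOBEC3B itself was at 36.0, 31.2 and 39.9 TPM in OVCAR4, 28.6, 43.9 and 51.6 TPM in ResA and 48.9, 74.4 and 91.6 TPM in ResB. All 3 ResB libraries had more TPM than the parent, yet from the counts, scaled to the median gene, the log2 difference was 0.39 ± 0.30 (adjusted p 0.418), and in ResA it was -0.35 ± 0.30 (adjusted p 0.517). Between the derivatives the test was more precise: APOBEC3B was higher in ResB than in ResA by 0.74 ± 0.12 on the log2 scale (adjusted p 2.57e-09), a call that held under each of 11 alternatives. Here same-numbered libraries deviated together (correlations 0.726, 0.546 and 0.581). APOBEC3F was also higher in ResB, by 0.72 ± 0.28 (adjusted p 0.0319), so that 2 of 7 members were called beside 24.7% of genes, 12.2% higher and 12.5% lower. This second call was lost without the block (adjusted p 0.0679) and without replicate 1, 2 or 3 (adjusted p 0.0808 to 0.554). Against the parent, APOBEC3F in ResB differed by 1.04 ± 0.45 (adjusted p 0.0943) and in ResA by 0.33 ± 0.51 (adjusted p 0.753).

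The largest fold change of a member was that of APOBEC3G in PEA2. It was at 0.138, 0.0307 and 0.0879 TPM in the 3 PEA1 libraries and at 5.35, 4.22 and 5.94 TPM in PEA2. Every PEA2 library lay far above every PEA1 library. The summed counts were 507 in PEA2 and 7 in PEA1, a ratio scaled for depth of 71.2 (95% interval 34.3 to 178, counting error only), and the fitted log2 difference was 6.22 ± 0.70 (adjusted p 1.21e-17). The call held under each of 11 alternatives. PTPRC, the pan-leukocyte gene that is 1 of the 6 lymphoid markers, was at 3.30 TPM in PEA2 and below 1 TPM in every other line, while the other 5 were below 1 TPM in every line, and the 6 together summed to 3.09 to 3.605 TPM in PEA2 and 0.135 to 0.326 TPM in PEA1. The 6 myeloid markers summed to 0.775 to 0.893 TPM in PEA1 and 2.32 to 3.75 TPM in PEA2, and the 4 endothelial markers to 0.0217 to 0.121 TPM and 5.68 to 8.78 TPM, with CDH5 at 7.02 TPM in PEA2. The 6 fibroblast markers summed to 69.6 to 116 TPM in PEA1 and 0.675 to 1.17 TPM in PEA2, and the 6 serous carcinoma markers to 205 to 233 TPM and 2474 to 2782 TPM. Few genes carried the fibroblast, myeloid and endothelial sums. COL1A1 made up most of the fibroblast sum in PEA1, while COL1A2 was below 1 TPM in every line. Of the fibroblast markers 2 of 6 had a mean of at least 1 TPM in PEA1. In PEA2 this level was reached by 1 of 6 myeloid and 1 of 4 endothelial markers. The part of other cells in the change of any member in this pair was not tested, and in bulk samples a share of cells and a level per cell cannot be told apart. APOBEC3G was also seen in PEO1, PEO4 and PEO6, where the lymphoid markers summed to at most 0.0468 TPM and the myeloid markers to 2.66 to 3.48 TPM in PEO1, 1.01 to 1.30 TPM in PEO4 and 1.62 to 1.90 TPM in PEO6.

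APOBEC3B fell in PEA2. Its libraries were at 72.9, 74.8 and 64.7 TPM in PEA1 and at 50.9, 45.6 and 34.6 TPM in PEA2, with no overlap, and it fell by 0.59 ± 0.23 on the log2 scale (adjusted p 0.0259). Leaving out replicate 1 or 2 ended this call (adjusted p 0.203 and 0.195). APOBEC3C was at 33.03, 21.4 and 29.1 TPM in PEA1 and 38.8, 33.9 and 22.6 TPM in PEA2, which overlap (log2 difference 0.30, 95% interval -0.21 to 0.80). With APOBEC3G and APOBEC3F, 3 of 7 members were called in PEA2, 2 higher and 1 lower, beside 38.1% of genes, 18.8% higher and 19.3% lower, and 52.1% of genes did not overlap in normalised counts.

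APOBEC3F in PEA2 gave one answer by counts and another per length. Its expected counts were 279, 208 and 185 in PEA1 and 427, 417 and 312 in PEA2, and the fitted log2 difference was 0.77 ± 0.28 (adjusted p 0.0147). Its TPM was 7.69, 6.90 and 7.08 in PEA1 and 8.68, 6.57 and 5.53 in PEA2, which overlap, and limma on log2(TPM + 1) gave -0.07. Dividing counts by TPM gives the effective transcript length that salmon used, up to a constant for each library. By that measure APOBEC3F transcripts were 1.65 times as long in PEA2 as in PEA1, with no overlap between libraries (1.48 to 1.99 times over all pairings of libraries). When that length was entered as an offset in the DESeq2 fit, the difference was 0.04 (adjusted p 0.923), and the call was also lost when any 1 replicate number was left out (adjusted p 0.0613 to 0.326). For APOBEC3B and APOBEC3C in the same pair the length ratio was 0.998 each. The extra counts of APOBEC3F in PEA2 thus went with a longer implied transcript, not with a higher TPM in every library.

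In the PEO family APOBEC3G and APOBEC3D stood highest in PEO6. APOBEC3G was at 6.35, 6.48 and 3.84 TPM in PEO1, 5.77, 4.38 and 2.55 TPM in PEO4, and 11.7, 10.9 and 9.21 TPM in PEO6. PEO6 lay above both other lines in every library (43.5% of genes did not overlap with PEO1 and 35% with PEO4 in normalised counts), whereas PEO1 and PEO4 overlapped. It rose by 0.92 ± 0.30 on the log2 scale in PEO6 over PEO1 (adjusted p 0.00802) and by 1.31 ± 0.36 in PEO6 over PEO4 (adjusted p 0.00283, the 1 member called there, beside 14% of genes, 7.61% higher and 6.43% lower), and its difference in PEO4 over PEO1 was -0.40 ± 0.30 (adjusted p 0.339). The first call was lost without replicate 1 (adjusted p 0.164), 2 (adjusted p 0.0573) or 3 (adjusted p 0.134) and by limma without a filter. The second was lost without replicate 1 (adjusted p 0.120) or 2 (adjusted p 0.215) and by limma with or without a filter.

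APOBEC3D was at 0.140, 0.0622 and 0.484 TPM in PEO1, 0.925, 0.811 and 0.415 TPM in PEO4 and 1.38, 1.46 and 0.762 TPM in PEO6. PEO6 lay above PEO1 throughout, and PEO4 overlapped PEO1 in TPM though not in normalised counts, where 39.1% of genes did not overlap in PEO4. APOBEC3D rose by 2.92 ± 0.80 on the log2 scale in PEO6 (adjusted p 0.00111). That call was lost under 3 of 10 alternatives: without replicate 1 (adjusted p 0.0635) or 2 (adjusted p 0.191) and by limma without a filter. In PEO4 it rose by 2.12 ± 0.85 (adjusted p 0.0401), a call lost under 6 of 10 alternatives. These were leaving out replicate 1, 2 or 3 (adjusted p 0.0883 to 0.433), the length offset, all 33 libraries in 1 fit, and limma without a filter. Its counts were 3.19 to 8.21 in PEO1 and 25.7 to 65.6 in PEO6, none of them whole numbers, so part of them was divided with copies such as APOBEC3F or APOBEC3B. APOBEC3F was at 2.90, 2.71 and 1.81 TPM in PEO1, 3.32, 3.57 and 2.58 TPM in PEO4 and 2.78, 3.89 and 5.04 TPM in PEO6. By counts it rose by 1.08 ± 0.31 in PEO6 (adjusted p 0.00248), which became 0.62 (adjusted p 0.155) with the length offset. This call was also lost without replicate 2 (adjusted p 0.0792) or 3 (adjusted p 0.0982) and by limma with or without a filter.

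Together 3 of 7 members were called in PEO6, all higher, beside 32% of genes, 16.3% higher and 15.6% lower, and 1 of 7 in PEO4 beside 27.6%, 13.7% higher and 13.9% lower. The most abundant members were not called in these lines. APOBEC3B was at 12.7, 12.7 and 16.3 TPM in PEO1, 17.1, 15.99 and 13.3 TPM in PEO4 and 14.004, 7.65 and 15.8 TPM in PEO6, which overlap. Its log2 difference was 0.19 in PEO4 (95% interval -0.26 to 0.63) and -0.23 in PEO6 (95% interval -0.84 to 0.38). For APOBEC3C the differences were -0.20 in PEO4 (95% interval -0.67 to 0.26) and -0.18 in PEO6 (95% interval -0.74 to 0.38).

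Whether 1 common resistant-minus-sensitive change would fit all 7 pairs was tested directly by a likelihood ratio test over the 33 libraries. The change differed between pairs for 5 of 7 members, beside 52.8% of genes: APOBEC3C (adjusted p 1.19e-27), APOBEC3F (1.16e-26), APOBEC3G (2.65e-25), APOBEC3B (1.00e-08) and APOBEC3D (0.0283). APOBEC3H did not pass (0.0658). APOBEC3D was lost without replicate 1 (adjusted p 0.235) or 2 (adjusted p 0.722), and APOBEC3H passed without the replicate block (adjusted p 0.0189). In the edgeR form of the test the same 5 members passed, beside 48.8% of genes, with adjusted p from 3.18e-07 for APOBEC3C to 0.0436 for APOBEC3D. With the line as the unit, on counts summed over the 3 libraries of each of 4 sensitive and 7 resistant lines with family as a covariate, 0 of 7 members and 0.276% of 24644 genes were called by DESeq2, and 0 members had an unadjusted p under 0.05. edgeR called 0 members as well, with 0 at an unadjusted p under 0.05. The log2 difference at line level was -0.34 ± 0.39 (SE) for APOBEC3B, -0.29 ± 0.49 for APOBEC3C, 0.12 ± 0.49 for APOBEC3F and 0.60 ± 1.22 for APOBEC3G. These depended on the family: without the OVCAR3 family 0 members were called, but APOBEC3G was at 2.65 (unadjusted p 0.0207, adjusted p 0.652), APOBEC3F at 0.75 (unadjusted p 0.0322, adjusted p 0.766) and APOBEC3C at 0.39, and APOBEC3G was at -0.45 without the OVCAR4 family and -0.43 without the PEA family.

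Interferon acts through receptors on the cell surface to switch on a common set of antiviral genes, and several APOBEC3 genes are known to respond to it in immune cells. A list of 13 interferon-stimulated genes was therefore read beside the members. In PEO4 and PEO6 all 13 were called higher, with a median log2 change of 4.13 and 4.01, beside medians of 0.01 and 0.02 over all genes. MX1, a dynamin-like antiviral GTPase, rose by 6.63 ± 0.18 in PEO4 and by 5.87 ± 0.27 in PEO6, from 3.39 TPM in PEO1 to 330 and 209 TPM. OAS3, which makes the activator of RNase L, rose by 3.57 ± 0.23 and 2.09 ± 0.22. In the same libraries the log2 differences of APOBEC3B and APOBEC3C lay between -0.23 and 0.19, and that of APOBEC3G was -0.40 in PEO4 and 0.92 in PEO6. APOBEC3D was called higher in PEO4 and in PEO6, and APOBEC3F, by counts, in PEO6, with the limits given above.

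In PEA2 the list went the other way, with 11 of 13 genes lower and 1 higher (median -1.98, all genes -0.02). MX1 fell by 1.98 ± 0.26 and OAS3 by 2.59 ± 0.22, while IFI27, the 1 that rose, did so by 3.24 ± 0.38. APOBEC3G and, by counts, APOBEC3F rose in this pair and APOBEC3B fell. In the laboratory-selected lines the list gave 7 of 13 higher and 0 lower in both OVCAR3 ResB (median 1.45) and OVCAR4 ResA (median 2.14), 3 higher and 2 lower in OVCAR4 ResB (median 1.19 over the 11 genes with an adjusted p and 0.69 over all 13) and 3 higher and 5 lower in OVCAR3 ResA (median -0.37). Some of the genes called higher varied widely between libraries, such as IFIT1 in OVCAR3 ResB (9.41 ± 9.64 TPM, SD) and OAS1 in OVCAR4 ResA (1.87 ± 2.90 TPM). Others varied less, such as IFI27 in OVCAR3 ResB (78.5 ± 22.1 TPM) and IFIT3 in OVCAR4 ResA (15.2 ± 2.79 TPM). In OVCAR3 ResB the called member, APOBEC3C, was lower, and in OVCAR4 ResA no member was called. By the sign of the list's median, the called members went against the list for APOBEC3C in OVCAR3 ResB and for APOBEC3F and APOBEC3G in PEA2. They went with it for APOBEC3B in PEA2, APOBEC3C in OVCAR4 ResB, APOBEC3D in PEO4, APOBEC3D, APOBEC3F and APOBEC3G in PEO6, and APOBEC3B, APOBEC3C and APOBEC3F in OVCAR3 ResA, where the list itself was mixed. This joint pattern was not tested.

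**Figure D4:**
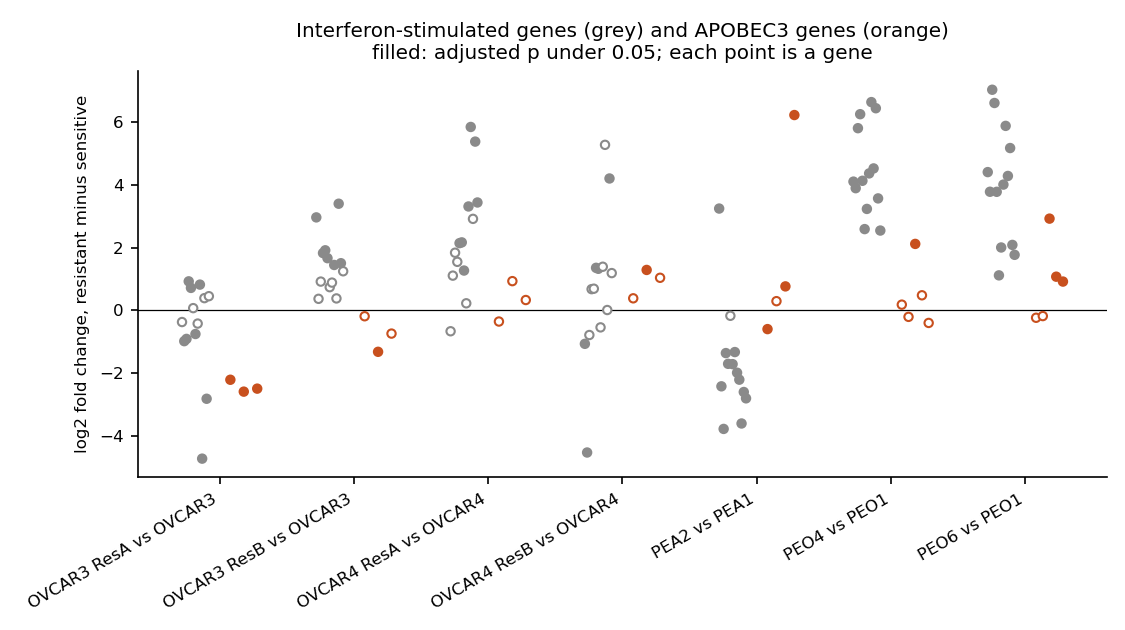
Log2 fold change (resistant over sensitive, vertical axis) of 13 interferon-stimulated genes (grey) and of the APOBEC3 genes with a mean of at least 10 normalised counts in either line (orange) in the 7 pairs; each point is a gene and filled points have an adjusted p under 0.05. All 13 grey points of PEO4 and PEO6 are filled and above 0 while the orange points of APOBEC3B and APOBEC3C stay near 0. The filled orange points there, APOBEC3D in PEO4 and APOBEC3D, APOBEC3F and APOBEC3G in PEO6, are above 0. In PEA2 the highest orange point is APOBEC3G at 6.22.

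Of 13 genes of interferon signalling, 7 were higher and 1 lower in PEO4 and 8 were higher and 1 lower in PEO6, and the rest were not called. In PEA2 3 of the 13 were higher and 3 lower. In OVCAR3 ResA 2 were higher and 5 lower, and in OVCAR4 ResB 2 were higher. None of the 13 was called in OVCAR3 ResB or OVCAR4 ResA. The counts of this and of every other gene list are to be read against the share of all genes called in the same pair. That share was 38.1% in PEA2, 37.2% in OVCAR3 ResA, 32% in PEO6 and 27.6% in PEO4. It was 13.8% in OVCAR4 ResB, 8.52% in OVCAR4 ResA and 5.78% in OVCAR3 ResB. Among 10 other restriction factors, which block retroviruses and retrotransposons by other means, 5 were higher in PEO4, 4 higher and 1 lower in PEO6, and 4 higher and 6 lower in PEA2. BST2, the tether that holds budding virions, rose from 0.313 TPM in PEO1 to 62.0 TPM in PEO4 and 406 TPM in PEO6 and fell from 204 TPM in PEA1 to 18.5 TPM in PEA2. SAMHD1, which depletes the nucleotides needed for reverse transcription, rose in 5 pairs and fell in PEA2. The remaining counts for this list were 2 higher and 3 lower in OVCAR3 ResA, 1 and 1 in OVCAR3 ResB, 2 and 1 in OVCAR4 ResA, and 1 and 2 in OVCAR4 ResB.

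APOBEC3B is known to be repressed by the DREAM complex and activated by B-MYB with MuvB and FOXM1 in dividing cells, and to respond to noncanonical NF-kB. In PEO6 6 of 12 regulators of this list were lower, 2 were higher and 4 were not called, and 7 of 8 proliferation genes were lower (median -1.06, all genes 0.02). MYBL2, the gene of B-MYB, was at 114 TPM in PEO1 and 21.9 TPM in PEO6 and fell by 2.65 ± 0.27 (adjusted p 7.25e-21), and FOXM1, named here after its values were seen, fell by 2.37 ± 0.24 (adjusted p 1.22e-20). APOBEC3B in PEO6 had the difference of -0.23 given above. In PEA2, where APOBEC3B fell, MYBL2 fell by 0.64 ± 0.27 (adjusted p 0.0400), TOP2A by 0.72 ± 0.23 (adjusted p 0.00485) and 4 of 8 proliferation genes were lower and 1 higher. In OVCAR3 ResA, the other pair in which APOBEC3B fell, MYBL2 fell by 0.90 ± 0.13, and 4 proliferation genes were higher and 2 lower.

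No regulator of the 12 was called in OVCAR3 ResB, OVCAR4 ResA or OVCAR4 ResB. In the other pairs 4 were higher and 4 lower in OVCAR3 ResA, 5 and 3 in PEA2, and 2 and 5 in PEO4. Of the 8 proliferation genes 1 was higher in OVCAR3 ResB and 1 in PEO4, and none was called in OVCAR4 ResA or ResB. Of the 5 NF-kB subunits REL, a canonical subunit, rose by 2.11 ± 0.53 in OVCAR4 ResA, by 2.14 ± 0.48 in OVCAR4 ResB and by 1.20 ± 0.43 in PEA2. Of the noncanonical subunits, RELB was called in 1 pair, lower by 0.84 ± 0.26 in PEA2, where APOBEC3B fell. NFKB2 was called in 1 pair, higher by 0.88 ± 0.20 in PEO4, where APOBEC3B was not called. The NF-kB list had 1 gene lower in OVCAR3 ResA, 2 higher in PEO4, 1 higher and 1 lower in PEA2 and none called in OVCAR3 ResB or PEO6.

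Genomic uracil left by a deaminase is removed by the glycosylase UNG and handed to base excision repair, and DUT keeps uracil out of new DNA by clearing dUTP. Of 12 genes of uracil repair and tolerance, 2 were higher and 5 lower in OVCAR3 ResA, 3 and 3 in PEA2, 2 and 1 in PEO4 and 0 and 2 in PEO6, and none was called in OVCAR3 ResB, OVCAR4 ResA or OVCAR4 ResB. UNG was called in 3 pairs, each time lower: by 1.03 ± 0.12 in OVCAR3 ResA, by 1.36 ± 0.26 in PEA2 (from 130 to 47.0 TPM) and by 0.64 ± 0.24 in PEO6. In OVCAR3 ResA and PEA2 APOBEC3B was lower too. DUT fell by 0.73 ± 0.19 in PEO4 and by 0.66 ± 0.23 in PEO6. Of 10 other deaminases and cofactors, CDA, which deaminates free cytidine and cytidine drugs, was called in 6 of 7 pairs, 3 higher and 3 lower. It rose by 4.35 ± 0.30 in PEA2, from 4.62 to 85.6 TPM, and fell by 2.66 ± 0.63 in OVCAR4 ResB. In that list at most 2 genes were called in any 1 direction in a pair.

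The 11 flanking genes of chromosome 22 were read beside the members. In OVCAR3 ResA 8 of the 11 neighbours were called lower and 0 higher, with a median log2 change of -0.74 (all genes -0.02). CBX6, the last gene before APOBEC3A, fell by 1.44 ± 0.12, NPTXR by 1.39, DNAL4 by 1.32 and MGAT3, the farthest on the other side, by 0.81. The difference between these changes and those of the members was not tested. By counts the 95% intervals of APOBEC3C (-3.13 to -2.03) and APOBEC3F (-3.13 to -1.84) lie below the fitted values of CBX6, NPTXR and DNAL4. Those values have standard errors of their own (0.12, 0.18 and 0.20). With the length offset APOBEC3F fell by less, as given above, and no interval from that fit is set beside the neighbours. The wider interval of APOBEC3B (-3.59 to -0.82), which had few counts, holds the values of CBX6, NPTXR and DNAL4. In PEA2 7 neighbours were higher and 3 lower (median 1.10, all genes -0.02). PDGFB, the gene after CBX7, rose by 2.19 and MGAT3 fell by 5.08, while inside the cluster APOBEC3G rose and APOBEC3B fell.

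In the other pairs the neighbours were called 2 higher and 0 lower in OVCAR3 ResB, 1 and 4 in OVCAR4 ResA, 2 and 2 in OVCAR4 ResB, 1 and 5 in PEO4, and 1 and 2 in PEO6. NPTXR, a neuronal pentraxin receptor, rose in 3 of the 7 pairs and fell in the other 4. Copy number was not analysed here, and its part in these changes was not tested.

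**Figure D5:**
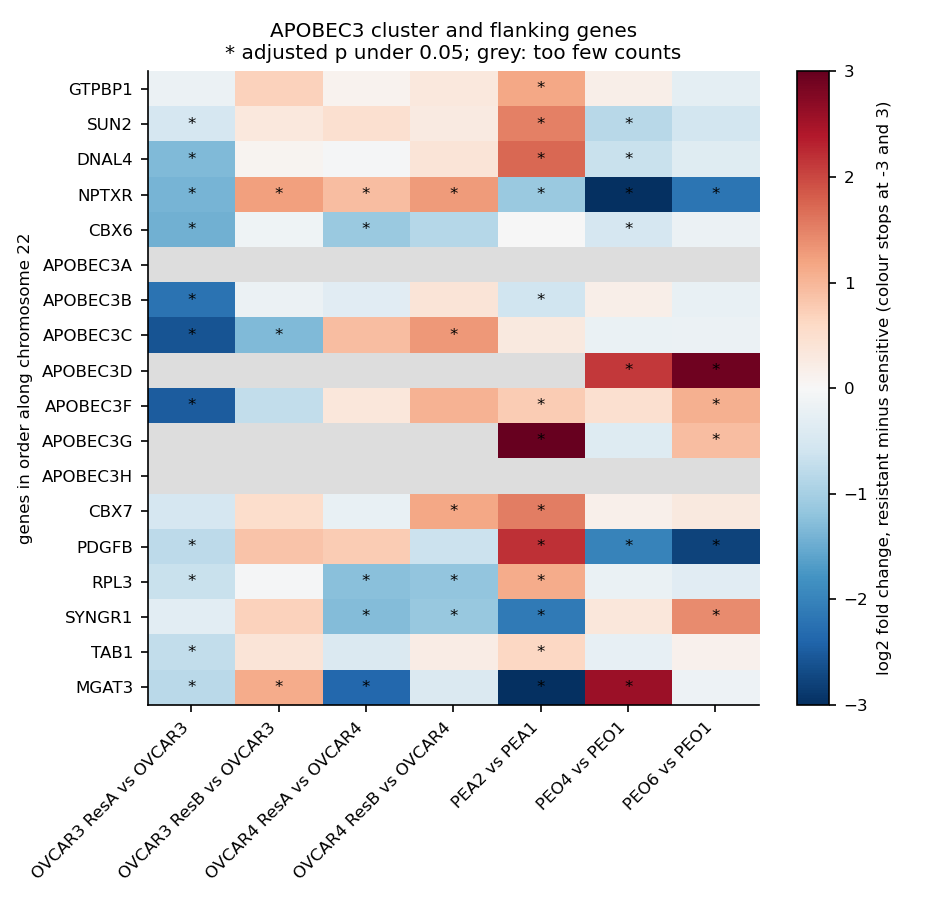
Log2 fold change (colour, resistant minus sensitive, limited to -3 and 3) of the APOBEC3 genes and 11 neighbours, in their order along chromosome 22 (rows), in the 7 pairs (columns); stars mark an adjusted p under 0.05 and grey marks APOBEC3 genes with a mean under 10 normalised counts in both lines. In the OVCAR3 ResA column APOBEC3A, APOBEC3D, APOBEC3G and APOBEC3H are grey and every coloured cell is blue, while the other columns mix both colours.

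Across the 11 line means of log2(TPM + 1), the genes most like each member were found among 16915 genes; these correlations are a description over lines that share origins. Closest to APOBEC3B were FERMT2 (r = 0.966), C14orf159 (r = 0.964) and ACADM (r = 0.963). Closest to APOBEC3C were SLFN13 (r = 0.932), HKDC1 (r = 0.919) and COPZ1 (r = 0.916), and HKDC1 (r = 0.905) was also second for APOBEC3F, between GANAB (r = 0.934) and PON2 (r = 0.905). Closest to APOBEC3G were ITGBL1 (r = 0.980), PPWD1 (r = 0.975) and MIR100HG (r = 0.975), and closest to APOBEC3D were LOC102723345, DPP6 and CABP7 (r = 0.985 to 0.987). No member was among the 3 genes closest to another member. With a pseudocount of 0.1 in place of 1, all 3 genes stayed among the closest 3 for APOBEC3C, 2 of 3 for APOBEC3B, APOBEC3D and APOBEC3F, and 1 of 3 for APOBEC3G.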

How the data were processed

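The title of each sample gave its line and replicate number. RNA was extracted with DNase digestion and made into poly(A)-selected libraries (KAPA mRNA HyperPrep), which were pooled and sequenced on an Illumina NextSeq instrument. The authors ran the nf-core RNA-seq pipeline on GRCh38 with Salmon, and the submitters' processing notes also name DRAGEN; the annotation release and the use of strand are not given in the sources used here. The deposited expected counts (estimated counts per gene) are not normalised; the deposited TPM values divide them by effective length and scale each library to the same sum, so TPM carries no depth.

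Expected counts were rounded and tested with DESeq2 1.42.0 in R 4.3.3 (Wald test, replicate block, no count filter), following the study's design of 6 libraries per comparison; adjusted p and calls are from this fit unless another tool is named. Alternatives were edgeR 4.0.16 with TMM, TMM size factors, a minimum of 10 counts in 3 libraries, no block, all 33 libraries in 1 fit, limma 3.58.1 on log2(TPM + 1) with and without a filter of 1 TPM, and leaving out each replicate. A length offset (expected count over TPM, scaled to the median gene of each library) was added after seeing the data. The tests were run on simulated counts first; there the likelihood ratio test of DESeq2, and edgeR in the comparison of a pair, made more false calls than the threshold allows, and limma without a filter recovered none of the changed genes. edgeR, which kept to the threshold in the test over all pairs, is given beside that test. Same-numbered libraries deviated together in all 3 replicates (correlation over 0.1) for OVCAR3 ResA against OVCAR3 and OVCAR4 ResB against OVCAR4 ResA only.

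The 7 members, the gene lists and the tests were chosen with earlier results of these data known. All members are named; of each list up to 4 genes called in the most pairs were to be named, with others of the list as context (1 such gene is not reported here); genes like a member were the 3 with the highest Pearson r. Counting intervals (95%) and the floor of 3 counts cover counting error only. GENCODE transcripts served for sequence only, and RefSeq for positions.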

Additional observations from a re-analysis of the deposited data

Results flagged for a closer look

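For 5 members the resistant-minus-sensitive change differed between the 7 pairs by the likelihood ratio test of DESeq2 over all 33 libraries: APOBEC3B (adjusted p 1.00e-08), APOBEC3C (1.19e-27), APOBEC3D (0.0283), APOBEC3F (1.16e-26) and APOBEC3G (2.65e-25). For APOBEC3C the fitted log2 changes ran from -2.58 in OVCAR3 ResA to 1.29 in OVCAR4 ResB. For APOBEC3G the change of 6.22 in PEA2 stood beside -0.40 in PEO4 and 0.92 in PEO6, and in the OVCAR3 and OVCAR4 families the gene was at or near 0 in both lines. The test passed for 52.8% of all genes, so a pass does not set the members apart, the pass of APOBEC3D was lost without replicate 1 (0.235) or 2 (0.722), and the test made more false calls than its threshold allows on simulated counts.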

How the results depend on the processing

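Over 37 fold changes and 11 alternatives, 393 of 402 refits kept the direction. Of 16 called changes (3 of them with 10 alternatives that could be fitted), 3 kept their call under all 11: APOBEC3C in OVCAR3 ResA, APOBEC3G in PEA2 and APOBEC3B in OVCAR4 ResB over ResA. With limma on log2(TPM + 1), filtered or not, the sign turned for APOBEC3B in OVCAR3 ResB (0.0058) and OVCAR4 ResA (0.17) and for APOBEC3F in PEA2 (-0.071); none was called there. Limma without a filter recovered no changed gene on simulated counts, whose TPM took no account of transcript length. In these data it did keep calls, such as APOBEC3C in OVCAR3 ResA and APOBEC3G in PEA2. How much a call lost there says of stability is therefore not settled by the simulation. Left out in turn, replicate 3 turned APOBEC3B in OVCAR3 ResB (range -0.55 to 0.24) and APOBEC3C in PEO6 over PEO4 (-0.14), and replicate 2 turned APOBEC3B in PEO6 (range -0.53 to 0.11). The cause was not tested, except that TPM differs from counts by the length and the library scaling given above.

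Of the calls over the 7 pairs (12), limma gave 6 with the filter and 4 without, and leaving out a replicate 3 to 6. Without the replicate block the members called became 3 in OVCAR3 ResB over ResA, 2 in OVCAR4 ResB, 1 in OVCAR4 ResA and 1 in OVCAR4 ResB over ResA, the last being the one of these pairs in which replicate numbers pair the libraries; the pairing in OVCAR3 ResA changed no count. edgeR gave 0 in OVCAR3 ResB. Filtered limma gave 0 in OVCAR3 ResB, PEO4, OVCAR3 ResB over ResA and PEO6 over PEO4 and 1 in PEO6; unfiltered limma gave 0 in these, in PEO6 and in OVCAR4 ResB, and 1 in PEA2 and OVCAR4 ResB over ResA. All 33 libraries in 1 fit gave 2 in OVCAR3 ResB, OVCAR4 ResB and PEO6 over PEO4, 1 in OVCAR4 ResA, 0 in PEO4 and 3 in OVCAR3 ResB over ResA. The length offset gave 0 in PEO4 and OVCAR3 ResB over ResA. Leaving out each replicate gave 0 to 0 in OVCAR3 ResB and PEO4, 0 to 1 in OVCAR4 ResA, OVCAR4 ResB, PEO6, OVCAR3 ResB over ResA and PEO6 over PEO4, 1 to 2 in PEA2, and 1 to 1 in OVCAR4 ResB over ResA.

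APOBEC3A had no adjusted p in any of the 7 pairs, and APOBEC3D, APOBEC3G and APOBEC3H had one in 3 pairs each, so in the other pairs a change in them could not be judged. With 2 libraries per line after leaving out a replicate, fewer samples alone weaken the tests.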
